A study of Mus musculus with 2 samples.

Results

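The early granule G cells of the E12.5 mouse liver were the cells of the granulocyte cluster (G) whose granule transcripts came mainly from Mpo, Elane, Prtn3 and Ctsg, the genes of the proteins that are packed first into neutrophil granules. A G cell was counted among them when these 4 genes together had more raw UMIs than Ngp, Camp, Ltf, S100a8 and S100a9, which are transcribed later. A UMI (unique molecular identifier) is a short random sequence that marks 1 captured RNA molecule. This applied to 137 of the 287 G cells (47.7%, 95% confidence interval 41.8 to 53.7%) and to 1.30% of the 10537 cells kept by the authors. They were spread over both libraries, with 69 of 157 G cells in library 1 (43.9%, 36.0 to 52.1%) and 68 of 130 in library 2 (52.3%, 43.4 to 61.1%). The lowest total of a cell in library 1 was 1768 UMIs among these cells and 1209 UMIs among the remaining G cells. In library 2 the lowest totals were 4549 and 4466 UMIs, and the part of this difference in the shares was not tested. The remaining 150 G cells (88 and 62) are called other G cells below, and the cluster of hematopoietic stem and progenitor cells, spelled HPSC in the deposited table and HSPC here, held 421 cells (213 and 208).

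All cells came from 1 wild-type C57BL/6J embryonic liver, sorted by flow cytometry away from debris, dead cells and doublets, with no treatment or genetic change. The suspension was processed as 2 technical replicate libraries on a droplet platform that counts the ends of transcripts. With 1 liver there was no test between animals, and all intervals cover counting error only. The cells were grouped by the very expression values that are compared, so the differences between groups are a description.

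Neutrophils arise from progenitors that pass through stages named after their granules. Promyelocytes fill azurophil (primary) granules with myeloperoxidase (Mpo) and with the serine proteases neutrophil elastase (Elane), proteinase 3 (Prtn3) and cathepsin G (Ctsg). Myelocytes and later stages stop this transcription, make secondary and tertiary granule proteins such as lactoferrin (Ltf) and leave the cell cycle. In the fetal liver this course is fed at first by erythro-myeloid progenitors from the yolk sac.

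The 150 bases before the start of each of the 4 early granule genes are shown because their transcripts chose the cells. The sequences are from RefSeq, build GRCm38.p6, read 5′ to 3′ on the strand of the gene. Mpo lies on the plus strand at chr11:87793634-87793783, Elane on the plus strand at chr10:79886162-79886311, Prtn3 on the plus strand at chr10:79879517-79879666 and Ctsg on the minus strand at chr14:56102575-56102724. Elane and Prtn3 are neighbours on chromosome 10. Capitals mark AGGAAGT, the core of an ETS family motif of the kind PU.1 (Spi1) binds, and AACGG, a Myb motif, each searched on both strands.
Mpo: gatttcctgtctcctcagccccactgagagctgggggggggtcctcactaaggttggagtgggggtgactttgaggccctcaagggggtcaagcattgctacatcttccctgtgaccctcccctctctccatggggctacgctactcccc
Elane: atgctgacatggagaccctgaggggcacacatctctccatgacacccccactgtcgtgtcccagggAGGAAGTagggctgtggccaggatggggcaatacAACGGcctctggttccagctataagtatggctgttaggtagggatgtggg
Prtn3: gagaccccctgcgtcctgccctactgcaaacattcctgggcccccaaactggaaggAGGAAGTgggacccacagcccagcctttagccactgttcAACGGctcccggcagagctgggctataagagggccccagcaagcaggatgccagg
Ctsg: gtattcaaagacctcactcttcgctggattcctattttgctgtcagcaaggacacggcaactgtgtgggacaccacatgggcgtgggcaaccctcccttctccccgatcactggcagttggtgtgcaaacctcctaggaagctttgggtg
Both motifs were present in Elane, at 84 and 50 bases before the start, and in Prtn3, at 94 and 55 bases before it. Neither run of letters was found in these windows of Mpo and Ctsg, and other forms of the ETS and Myb motifs were not searched. Of 32851 windows of the same length in the table, 5.07% held AGGAAGT, 9.44% held AACGG and 0.493% held both. TTGCNNAA, a C/EBP motif, was in 5.46% of all windows and in none of the 4. The motifs were chosen after the sequences had been read, and a match is not a measured binding site.

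The 4 genes that defined the cells were not detected equally often. Mpo was found in 136 of the 137 cells, with a median of 86.0 UMIs and a highest value of 317. Prtn3 was found in 134 cells (median 42.0, highest 202). Elane was found in 90 cells (median 2.00, highest 292) and Ctsg in 74 (median 1, highest 84). So nearly all of these cells had both Mpo and Prtn3 transcripts (133 cells, 97.1%, 92.7 to 99.2%), 58 cells (42.3%, 33.9 to 51.1%) had all 4, and 31 cells (22.6%, 15.9 to 30.6%) had neither Elane nor Ctsg. In HSPCs, Mpo was found in 342 and Prtn3 in 360 of the 421 cells, but Elane in 14 and Ctsg in 38. Erythroid-committed progenitors (Ery) served as background, though whether they make none of these transcripts themselves was not tested. After thinning each cell to 3600 UMIs, 6.51% of Ery held a Mpo UMI, 4.99% a Prtn3 UMI, 0.445% an Elane UMI and 0.436% a Ctsg UMI. The same shares in the early granule G cells, which the rule chose by these transcripts, were 98.9, 96.9, 46 and 42.7%. The median depths before thinning were 22845.5 UMIs in Ery and 18545.0 UMIs in the early granule G cells.

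Summed over the 4 early genes, the cells held between 1 and 749 UMIs (median 132.0, with 147.0 in library 1 and 117.0 in library 2). Their sum over the 5 late genes had a median of 1 and reached 392. No late UMI was found in 40 cells, and 24 cells (14 and 10) held 10 or more. S100a8 and S100a9 were each found in 60 cells, Camp in 23, Ngp in 17 and Ltf in 7. For S100a8 and Ngp the thinned shares were 25.0 and 2.40%, against 6.74 and 3.19% in Ery, so the share for Ngp lay at background. The early genes gave 1.10 and 0.898% of all UMIs of these cells in libraries 1 and 2, and the late genes 0.127 and 0.137%. In the other G cells, the late genes gave 16.4 and 13.4% of the UMIs and the early genes 0.461 and 0.682%. The direction of this contrast was set by the rule and is no result of the comparison. Of HSPCs, 370 also had more early than late UMIs, but at a median of 13 early UMIs, and 1 of 421 reached the median of the early granule G cells.

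**Figure D1:**
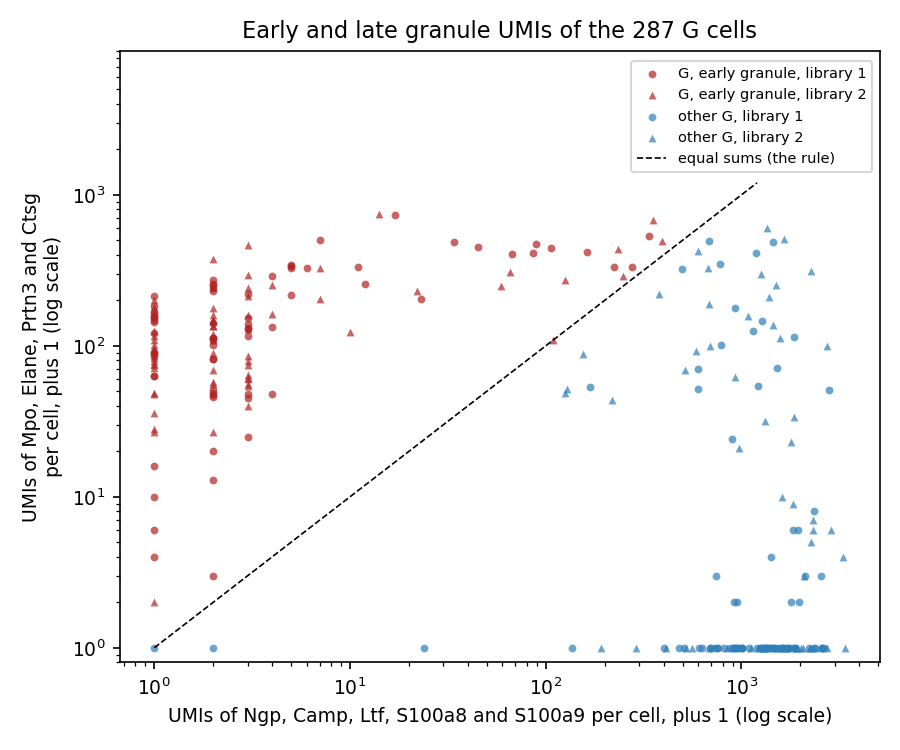
Summed UMIs of Mpo, Elane, Prtn3 and Ctsg (vertical axis) and of Ngp, Camp, Ltf, S100a8 and S100a9 (horizontal axis) in each of the 287 G cells, both plus 1 and on log scales, with circles for library 1 and triangles for library 2. The 137 early granule G cells (red) lie above the dashed line of equal sums, most of them at 0 to 9 late UMIs, and the 150 other G cells (blue) lie on or below it.

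Few cells lay close to the rule's limit when judged by the difference between the 2 sums. The cells nearest to it on the inside held 1 early and 0 late UMIs, 2 and 1, 109 and 108, and 3 and 0. Those nearest on the outside held 0 and 0, 0 and 1, 0 and 23, and 87 early against 154 late UMIs. Among the other G cells, 43 held 10 or more early UMIs. Judged by ratio, 126 of the 137 early granule G cells held at least 3 times as many early as late UMIs. The rest were more mixed, for example with 495 early and 392 late UMIs. Some other G cells were mixed as well, for example with 421 early and 600 late UMIs.

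The early granule G cells were large in RNA content, with a median of 18315.0 UMIs and 3932.0 genes in library 1 and 18646.0 UMIs and 3962.5 genes in library 2. HSPCs were similar, at 16053.0 and 14956.0 UMIs, whereas the other G cells had 5912.5 and 10243.5. Of the other G cells, 51 of 88 in library 1 and 18 of 62 in library 2 held under 7200 UMIs. Their lowest totals were 1209 and 4466 UMIs, so the medians of the libraries come from different ranges of depth. In total the early granule G cells held 2415518 UMIs outside the 9 genes of the rule, the other G cells 1136025 and the HSPCs 6564720. Levels are given below as CPM, the UMIs of a gene per 1000000 UMIs outside these 9 genes, summed over the cells of a group in 1 library. The lower number of UMIs in the other G cells moved with each difference from them, and its part in the result was not tested. The cell cycle phases in the deposited table also differed, with 35.8% (27.8 to 44.4%) of early granule G cells in G1, 26.3% in S and 38.0% in G2M, against 62.0, 18.7 and 19.3% of other G cells and 30.2, 34.9 and 34.9% of HSPCs.

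Compared with the other G cells, the early granule G cells had higher levels of several stem and progenitor genes and of most listed nucleolar genes. Some protein folding genes of the endoplasmic reticulum (ER) were also higher, and the late neutrophil genes compared were much lower. A gene was called higher or lower when its CPM differed at least 2-fold the same way in both libraries and reached 50 in the higher group. A gene that reached 50 CPM in only 1 group could thus be called only as higher in that group. Of 3243 genes at this level, 553 were higher (17.1%) and 389 were lower (12%). This split depended on the scale. The median log2 ratio of all these genes was 0.36, and with the 9 genes counted in the total it was 0.63, with 804 genes higher and 285 lower. Centred on the median ratio, 310 genes were higher and 562 lower. The list medians below are to be read against the value of 0.36.

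Late neutrophil genes showed the largest differences. All 19 of the 23 listed genes that reached 50 CPM in either group were lower in the early granule G cells, with a median log2 ratio of -6.90, and 12 of the 23 had no UMI in these cells. Of the 19, only Hp, Anxa1, Pglyrp1 and Stfa1 reached 50 CPM in the early granule G cells, so the others could not have been called higher. Because the rule set the cells apart by 5 late granule genes, this is a description and no separate support for the grouping. The list summed to 1939 and 1392 CPM in the early granule G cells and to 53851 and 39595 CPM in the other G cells. Lcn2 (chromosome 2, 32384633 to 32388252), which encodes the iron-trapping protein lipocalin 2 of secondary granules, was at 4.17 and 7.39 CPM in the early granule G cells and at 12095 and 8444 CPM in the other G cells. It was thus 1769.7-fold lower (1054 to 3238), and its level was also below that in barcodes with 1 to 50 UMIs, which stand for free RNA (107 and 77.5 CPM). Ly6g, the surface marker by which the study named the G cluster, had 0 UMIs in all 137 cells, which allows up to 1.24 CPM, against 250 and 87.4 CPM in the other G cells, so it was at least 135-fold lower. The neutrophil integrin gene Itgb2l, also at 0, was at 347 and 239.5 CPM in the other G cells (at least 236-fold lower). The collagenase gene Mmp8 had 3 UMIs in the early granule G cells and 596 in the other G cells. Lyz2, the lysozyme gene, was at 1176 and 789.5 CPM against 30358 and 19631 CPM (25.4-fold lower, 24.4 to 26.5). Among the 12 genes lower by the largest folds were also Chil1, Retnlg, Wfdc21, C5ar1 (a complement receptor) and the stefin A genes Stfa2, Stfa2l1, Stfa3, Gm5483 and 2010005H15Rik. The stefin A genes are near-identical copies, and reads could have been split between them, so their single values are uncertain.

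Higher in the early granule G cells were genes of progenitors. Of 21 listed stem and progenitor genes, 7 reached 50 CPM and 6 of them were higher, with a median log2 ratio of 3.78. All 21 summed to 261 and 233 CPM in the other G cells. The 6 genes reached 50 CPM through the early granule G cells, so they could not have been called lower. Cd34 (chromosome 1, 194938819 to 194961279), a sialomucin of progenitors, was at 219 and 265 CPM against 23.0 and 12.2 CPM in the other G cells (13.7-fold, 8.81 to 22.7). The adhesion receptor gene Adgrg1 was at 155 and 185 CPM against 1.77 and 3.50 CPM, and Hmga2, a fetal chromatin gene, at 110.2 and 168 CPM against 3.55 and 1.75 CPM. Cd48, Egfl7 and Gata2 were the others. Each of these genes was high in both libraries of the early granule G cells and low in both libraries of the other G cells. First in order by the smaller fold of both libraries was Cpa3 (chromosome 3, 20215620 to 20242181), the gene of carboxypeptidase A3, known from mast cells and their progenitors. It was at 239 and 168 CPM in the early granule G cells, with 490 UMIs in 78 of the 137 cells, and at 5.32 and 0 CPM in the other G cells (76.8-fold, 26.1 to 374). Of the other genes higher by the largest folds, Cnn3 encodes a calponin, Ikzf2 the transcription factor Helios and Ms4a6c a membrane protein of monocytes. Ms4a6c was at 89.3 and 83.0 CPM against 3.55 and 1.75 CPM. Oaf, Gpatch4, Mtap and Rangrf completed this group of 12, with levels of 60.1 to 141 CPM in the early granule G cells and 0 to 12.4 CPM in the other G cells.

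Of the 13 myeloid transcription factors measured, 10 reached 50 CPM, 3 were higher and 2 were lower than in the other G cells. Cebpa (chromosome 7, 35119293 to 35121928), which starts the granulocyte programme, was at 86.8 and 87.9 CPM against 10.6 and 19.2 CPM in the other G cells and 26.1 and 21.2 CPM in HSPCs. It was thus higher than in both, by 5.84-fold (3.56 to 10.2) and 3.68-fold (2.97 to 4.55). Cebpe (chromosome 14, 54710360 to 54712174), which is needed for secondary granules, was intermediate, at 302 and 249.8 CPM against 1244 and 1077 CPM in the other G cells and 2.61 and 1.60 CPM in HSPCs. After thinning, 42.1% of early granule G cells, 93.2% of other G cells, 0.722% of HSPCs and 0.180% of Ery held a Cebpe UMI. Irf8, a regulator of monocytes and dendritic cells, had 206 UMIs in 46 early granule G cells (75.1 and 95.3 CPM) and 1 UMI in the other G cells. These counts as they stand give a ratio of 96.9 (17.2 to 3845). With the floor of 3 counts used for the calls, the log2 ratio of Irf8 was 5.01. Its level in HSPCs, 82.2 and 71.5 CPM, was above that of the early granule G cells in library 1 and below it in library 2. Myb, a factor of dividing progenitors, was at 194 and 149 CPM against 55.0 and 68.2 CPM in the other G cells (2.78-fold, 2.15 to 3.64). Id2, an inhibitor of basic helix-loop-helix factors, was lowest in the early granule G cells of the 3 groups, at 7.51 and 1.64 CPM against 236 and 208 CPM in the other G cells (48.7-fold lower, 26.8 to 98.8) and 92.3 and 99.0 CPM in HSPCs (21.0-fold lower, 11.6 to 42.2). Spi1, which encodes PU.1 (517 and 491 CPM), was not called in either comparison. Gfi1, a repressor of monocyte genes (25.9 and 20.5 CPM), did not reach 50 CPM and so was not compared.

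**Figure D2:**
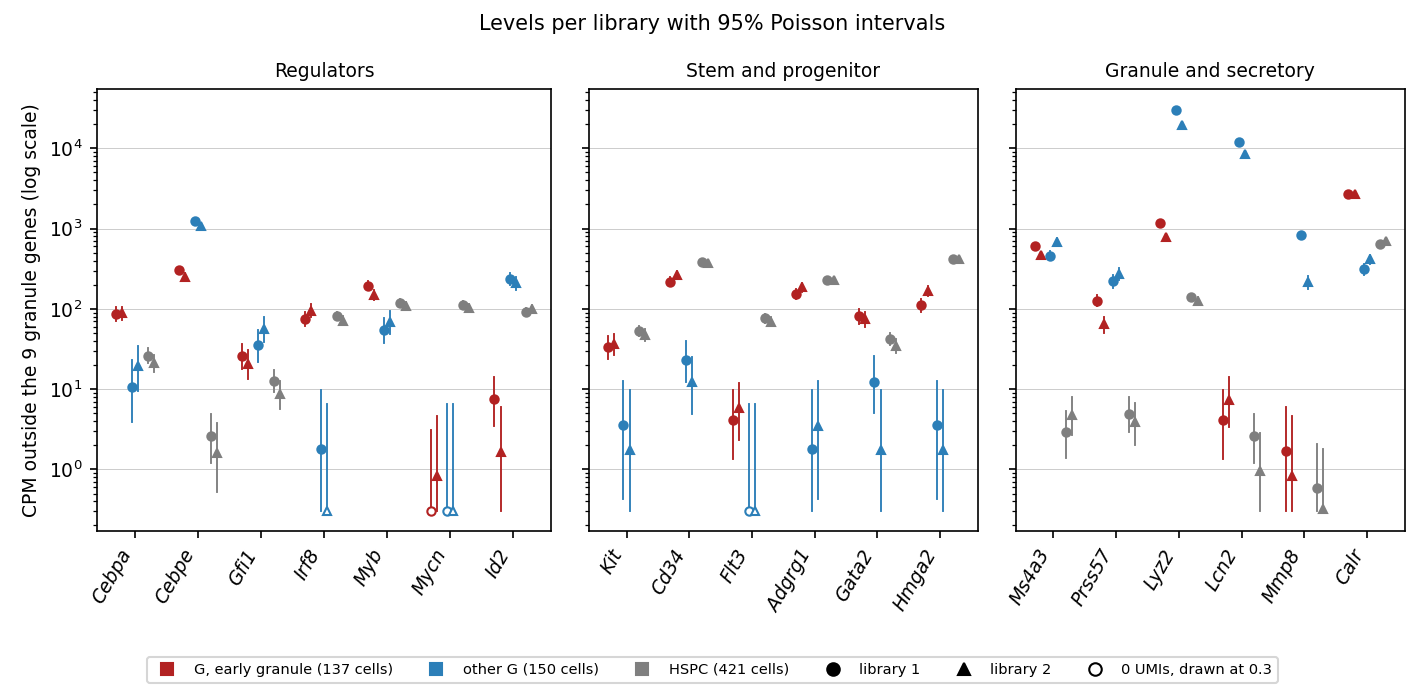
CPM (log scale) of regulators, progenitor genes and granule or secretory genes in early granule G cells (red), other G cells (blue) and HSPCs (grey), with circles for library 1, triangles for library 2, open symbols for 0 UMIs and vertical lines for 95% Poisson intervals. Cebpa was highest in the early granule G cells, Id2 was lowest there, Cebpe lay between the other G cells and HSPCs, and Cd34, Adgrg1, Kit and Hmga2 lay between HSPCs and the other G cells.

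Most listed nucleolar genes and some ER protein folding genes were also at higher levels. Of 14 nucleolar and ribosome assembly genes, 13 were higher than in the other G cells, with a median log2 ratio of 2.07. Npm1, the gene of nucleophosmin, was at 3921 and 3801 CPM against 713 and 904 CPM (4.77-fold, 4.46 to 5.11), and Ncl, the gene of nucleolin, at 1188 and 1244 CPM against 257 and 348 CPM. In HSPCs, Npm1 was at 4777 and 4480.3 CPM, and none of the 14 genes was called in that comparison. Cytosolic ribosomal protein genes had a median log2 ratio of 0.69 to the other G cells, with 2 of 81 higher (Rpl22l1 and Rps27l). That number was 13 with the 9 genes in the total, 18 in library 1 alone and 0 after centring on the median ratio. Of 16 ER protein folding genes at 50 CPM, 7 were higher than in the other G cells, with a median log2 ratio of 1.10. Without library 2 this number was 13. Calr (chromosome 8, 84841850 to 84846934), the gene of the ER chaperone calreticulin, was at 2699 and 2685 CPM against 310.2 and 416 CPM (7.40-fold, 6.70 to 8.20). Hspa5, the ER heat shock protein BiP, was at 653 and 642 CPM against 165 and 199 CPM, and Sdf2l1 and Manf, which act in the same compartment, were 4.37-fold and 4.44-fold higher.

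The genes of the NADPH oxidase, which makes superoxide in mature phagocytes, were lower than in the other G cells for 5 of 6 members, with a median log2 ratio of -2.32. Cybb, which encodes the catalytic subunit, was at 22.5 and 15.6 CPM against 587 and 430.1 CPM (26.7-fold lower, 19.7 to 36.9). Cyba, Ncf1, Ncf4 and Rac2 were the others. Among 11 cytokine and chemokine receptors, 2 of 6 were lower, Csf2ra (a subunit of the GM-CSF receptor) and Cxcr4, which holds granulocytes at their site of production. The G-CSF receptor gene Csf3r was at 39.2 and 38.6 CPM against 62.0 and 61.2 CPM and was not called. The integrin gene Itgb2 was the only 1 of 4 adhesion and pattern recognition genes that was lower, at 52.6 and 34.5 CPM against 411 and 238 CPM.

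Of 16 S phase genes, 1 (Gins2) was higher and none lower than in the other G cells, with a median log2 ratio of 0.35, close to that of all genes. In library 1 alone 3 were higher, with a median of 0.66 (all genes 0.38). In library 2 alone 1 was higher, with a median of 0.15 (all genes 0.37). Of 15 G2 and mitosis genes, Cenpf, Ube2c and Nusap1 were lower and none higher, with a median of -0.66. After centring on the median ratio, 6 of the 15 were lower. The deposited phases put more of the early granule G cells in G2M than of the other G cells, whereas the G2 and mitosis genes summed to 1694 and 1863 CPM against 2886 and 3000.5 CPM. The cell cycle inhibitor gene Cdkn2d was at 44.2 and 51.8 CPM against 282 and 198 CPM, and was 1 of 2 lower among 3 cell cycle exit genes, with Btg2.

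The other genes of primary granules did not move as a group against the other G cells. Of 12 at 50 CPM, Cst7, an inhibitor of cathepsins, was the only 1 higher, and 3 were lower, among them Lyz2 and Serpinb1a (an inhibitor of neutrophil proteases). The median log2 ratio was -0.14, and its sign depended on the setting, with 0.09 when the 9 genes were in the total and 0.15 in library 1 alone. Ms4a3 (chromosome 19, 11629496 to 11640851), a membrane protein gene of granulocyte-monocyte progenitors, was at 604 and 469.9 CPM against 459 and 689 CPM, higher in library 1 and lower in library 2. Prss57, a further serine protease of these granules, was at 127 and 64.1 CPM against 219.8 and 273 CPM and was not called.

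Against HSPCs the differences were fewer. Of 3033 genes, 138 were higher (4.55%) and 81 were lower (2.67%), and the median log2 ratio was 0.02. Higher were granule genes, including some late ones at low levels, most ER folding genes and some markers of mast cells and eosinophils. Lower were several stem and progenitor genes. Of the other primary granule genes, 10 of 11 were higher and none lower, with a median log2 ratio of 2.14. Ms4a3 was at 2.90 and 4.81 CPM in HSPCs, so it was 141-fold higher (95 to 219) in the early granule G cells, and 54.1% of them and 1.25% of HSPCs held a UMI after thinning (Ery 0.747%). Cebpe was 129-fold higher (76.5 to 238), Prss57 21.6-fold (14.6 to 32.9), and Cd63, a tetraspanin of granule membranes, 9.45-fold (8.63 to 10.3). Srgn, the proteoglycan that binds granule proteins, was at 2047 and 1536 CPM against 607 and 546 CPM. Of 16 ER genes, 12 were higher, with a median log2 ratio of 1.23, and Calr was 4.06-fold higher (3.91 to 4.22). Their list summed to 8451 and 7649 CPM in the early granule G cells, 3214 and 3078 CPM in HSPCs and 2436 and 2672 CPM in the other G cells. The early granule G cells thus had the highest sum of the 3 groups in both libraries.

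Among the receptors, 3 of 5 were higher than in HSPCs, namely Csf2ra, Csf2rb and Il3ra, which encode chains of the GM-CSF and interleukin-3 receptors, and 1 was lower. Csf2rb was at 53.4 and 59.2 CPM against 14.8 and 14.7 CPM (3.81-fold, 2.92 to 5.0). Of the NADPH oxidase genes, Ncf4 was higher than in HSPCs, at 108 and 102 CPM against 42.7 and 27.6 CPM. Without the cells with 10 or more late UMIs, none of 5 NADPH oxidase genes was called.

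Lower than in HSPCs were 8 of 14 stem and progenitor genes (Flt3, Cd27, Hoxa9, Meis1, Sox4, Egfl7, Hmga2 and Mycn), with a median log2 ratio of -1.72 and none higher. Of these, all but Egfl7 and Hmga2 reached 50 CPM through HSPCs only, so they could not have been called higher. Mycn (chromosome 12, 12936093 to 12941914), a proto-oncogene of the Myc family, gave 1 UMI in the 137 early granule G cells. In HSPCs it gave 705 UMIs (112 and 102 CPM). These counts as they stand give a 259-fold difference (46.4 to 10260.4). With the floor on low counts used for the calls, the log2 ratio of Mycn was -6.43. The homeobox gene Hoxa9 gave 2 UMIs against 497. Flt3, a cytokine receptor gene of lymphoid and myeloid progenitors, was at 4.17 and 5.75 CPM against 76.4 and 69.2 CPM (14.7-fold lower, 8.33 to 28.6). Gimap6, Gimap5 and Ltb, expressed in lymphocytes, Ifi203, Hoxa7 and Adgrl4 were among the 12 lower by the largest folds, together with Cd27, Id2 and the genes above. Kit, the receptor gene the study was about, was at 33.4 and 36.1 CPM in the early granule G cells and at 53.7 and 47.1 CPM in HSPCs, and was not called. Cd34, at 384 and 371 CPM in HSPCs, was not called either.

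**Figure D3:**
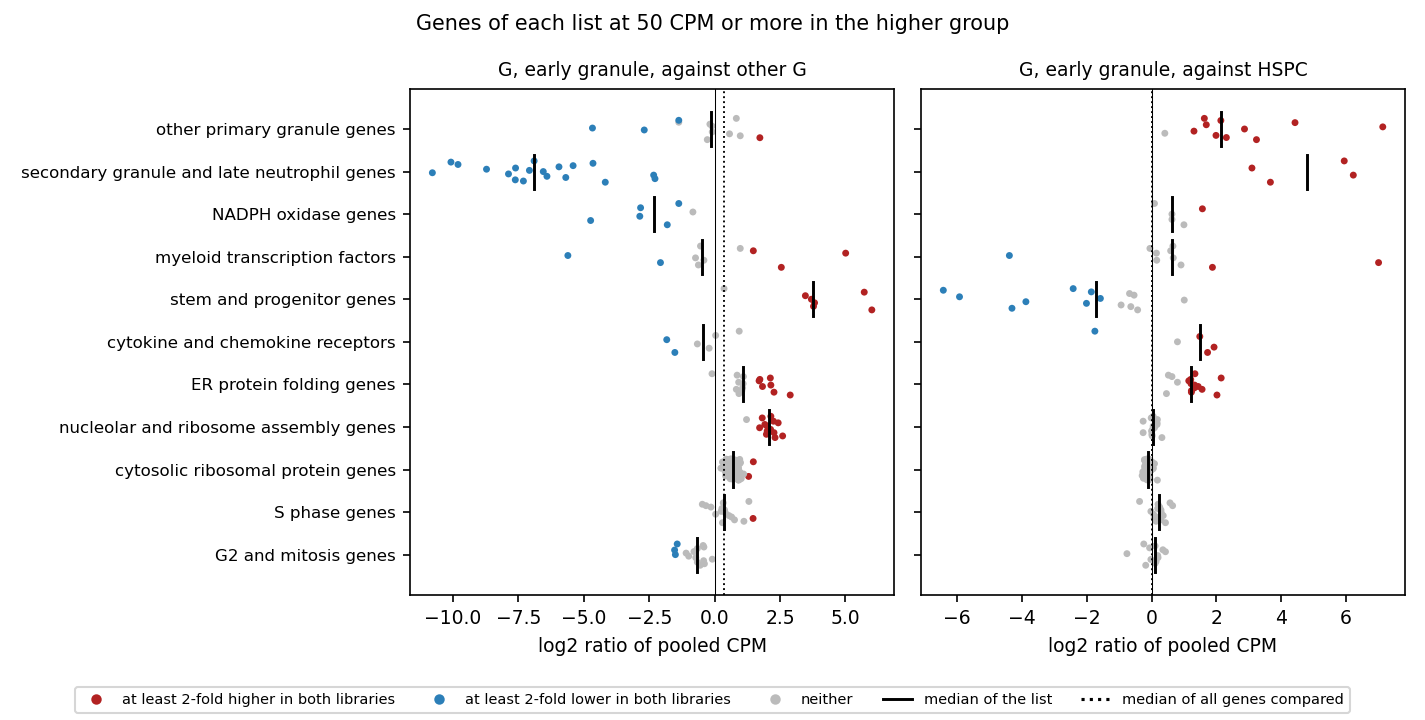
Log2 ratios of pooled CPM between the early granule G cells and the other G cells (left) or HSPCs (right), 1 point for each gene of a list that reached 50 CPM in the higher group, with red points for genes at least 2-fold higher and blue points for genes at least 2-fold lower in both libraries. Short bars are list medians, and the dotted lines are the medians of all genes compared, 0.36 on the left and 0.02 on the right. Late neutrophil genes lie far to the left in the first comparison, and 12 of 16 ER protein folding genes are red in the second.

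The 4 late neutrophil genes that reached 50 CPM against HSPCs were all higher (Hp, Anxa1, Pglyrp1 and Stfa1), with a median log2 ratio of 4.81. In HSPCs the whole list of 23 genes summed to 77.5 and 66.3 CPM. These 4 genes reached 50 CPM through the early granule G cells, so none of them could have been called lower. Most transcripts of this list in the early granule G cells, however, came from the 24 cells with 10 or more late UMIs. Without these 24 cells, 3 genes of the list reached 50 CPM and all 3 were higher, with a median log2 ratio of 3.52. Fcnb, the ficolin gene of granulocytes, was at 662 and 409.8 CPM in these 24 cells, 3.05 and 11.6 CPM in the 73 cells with 1 to 9 late UMIs, and 0 in the 40 cells with none. For all early granule G cells its log2 ratio to HSPCs was 7.43, and without these 24 cells it was 3.04. Stfa1 behaved alike, at 3000.5 and 3688 CPM in the 24 cells, 171 and 168 CPM in the 73 cells and 52.1 and 24.0 CPM in the 40 cells, with the same uncertainty about its near-identical copies. These 3 groups were made from late genes of the rule. HSPCs held a median of 1 and at most 6 late UMIs, so early granule G cells with 0 and with a few late UMIs are not clearly set apart. Slpi, an inhibitor of neutrophil proteases, Hp (haptoglobin), Ly6c2, Trem3, Cldn15 and BC100530 (a stefin A gene) were also among the 12 genes higher by the largest folds than in HSPCs. The haptoglobin gene was at 578 and 429.7 CPM against 5.81 and 7.69 CPM in HSPCs and 2801 and 2282 CPM in the other G cells.

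Within each library, the early granule G cells were placed in order of how much of their RNA the 4 early genes made up and divided into 3 groups of 45 or 46 cells. Some of the other genes examined moved with this order in both libraries. The share of UMIs ran from 0.0194 to 0.535% in the lowest group and from 0.920 to 3.92% in the highest, while the median number of UMIs per cell was 17633.5, 19287.5 and 19737.0 in the 3 groups. Ms4a3 differed between the groups, from 146 through 356 to 1182 CPM in library 1 and from 100.5 through 326 to 996 CPM in library 2. Prss57 was at 12.7, 47.3 and 289 CPM in library 1 and at 7.35, 26.8 and 161 CPM in library 2. Gfi1 was at 3.18, 9.0 and 59.1 CPM and at 0, 19.5 and 42.7 CPM. Cebpe was at 92.4, 254 and 500.0 CPM and at 105, 273 and 374 CPM, and Lyz2 at 309, 927 and 2046 CPM and at 294, 582 and 1511 CPM. All of these were thus lowest in the cells with the smallest early granule share and highest in those with the largest, in both libraries. Because the order was made from the 4 genes that also chose the cells, this is a description and no separate support for the grouping. The sum of the ER folding genes also differed, from 5936 and 5885 CPM to 9960.0 and 8882 CPM.

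Opposite to these, Cpa3 was at 395, 306 and 59.1 CPM in library 1 and at 238, 226 and 35.1 CPM in library 2. Gata2, a factor of progenitors, mast cells and basophils, was at 197, 69.8 and 9.09 CPM in library 1, and at 93.1, 107 and 22.6 CPM in library 2, where the middle group was not below the lowest. The sum of the stem and progenitor genes was lower with each group of library 1, from 1551 through 1161 to 771 CPM, as in library 2, from 1539 through 1417 to 828 CPM. Cebpa was at 111, 92.3 and 63.6 CPM and at 88.2, 117 and 57.7 CPM. S phase genes summed to 3522, 3425 and 3343 CPM and to 2966, 2695 and 3012 CPM, with no common direction in both libraries. The 24 cells with 10 or more late UMIs all had an early share of 1.03% or more, at a median of 2.20%.

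**Figure D4:**
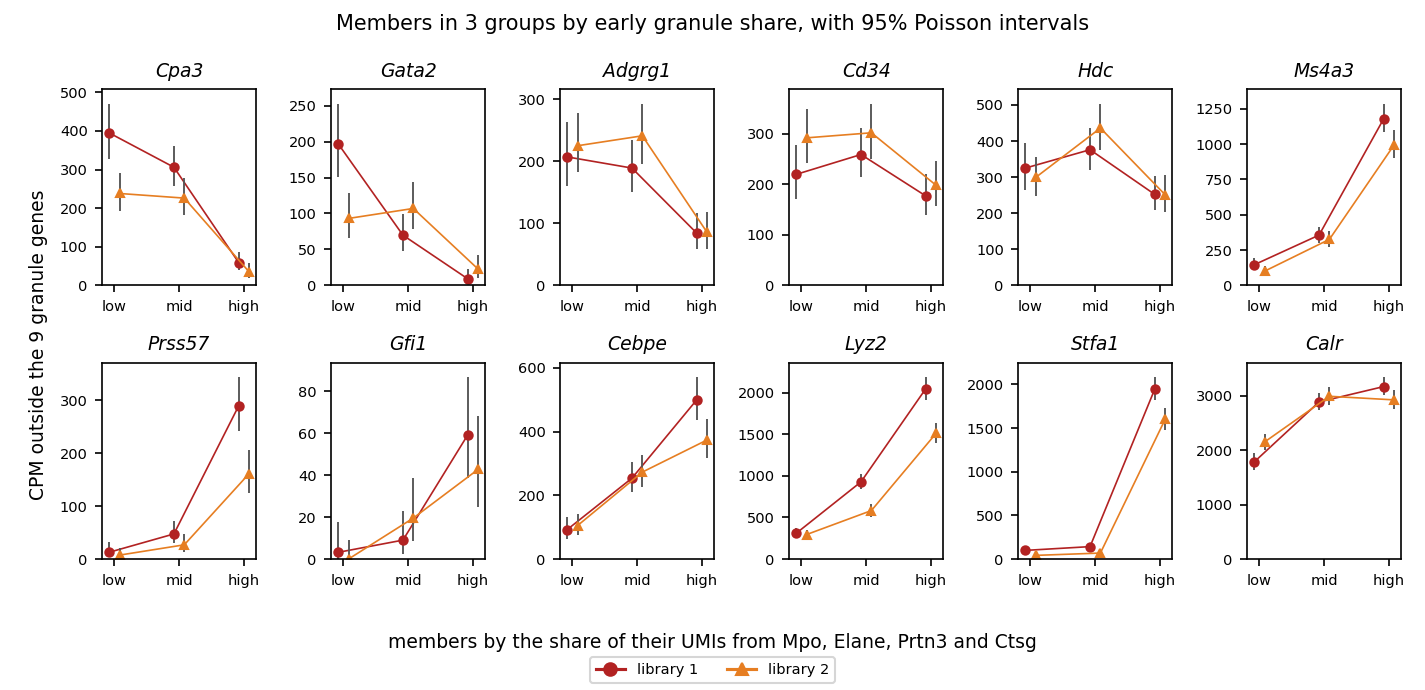
CPM of 12 genes in the early granule G cells, divided within each library into 3 groups by how much of their UMIs Mpo, Elane, Prtn3 and Ctsg gave (low, mid, high), with red circles for library 1, orange triangles for library 2 and 95% Poisson intervals. Ms4a3, Prss57, Gfi1, Cebpe, Lyz2 and Stfa1 were highest in the high group, and Cpa3, Gata2 and Adgrg1 were lowest there.

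Markers of other cell types were present in some of the early granule G cells. Of 9 mast cell and basophil genes, 3 (Cma1, Tpsb2 and Mcpt4) had no UMI, and the list summed to 599 and 517 CPM, against 177 and 133 CPM in the other G cells and 37.2 and 40.4 CPM in HSPCs. The largest number of its UMIs came from Hdc, the gene of histidine decarboxylase, at 317 and 329 CPM (27.6-fold above HSPCs, 21.8 to 35.3). The high-affinity IgE receptor gene Ms4a2 gave 46 UMIs in 15 cells and the basophil protease gene Mcpt8 gave 17 UMIs in 10 cells. After thinning, 35.6% of early granule G cells held a Cpa3 UMI, against 0.702% of other G cells, 6.14% of HSPCs and 1.81% of Ery. Of 16 monocyte and macrophage genes, C1qa, Timd4 and Mrc1 had no UMI. The list summed to 381 and 382 CPM, against 496 and 337 CPM in the other G cells and 103 and 102 CPM in HSPCs. In the Mo/KC cluster of monocytes and Kupffer cells it summed to 4787 and 3085 CPM. Of 3 genes compared with the other G cells, F13a1 and Ms4a6c were higher and Ly6c2 was lower. The largest number of UMIs in this list came from F13a1, the coagulation factor XIII subunit gene, at 110.2 and 134 CPM. The sum of the mast cell and basophil list, which holds Cpa3, was above both other groups in both libraries. The sum of the monocyte and macrophage list was above HSPCs in both libraries, but above the other G cells in library 2 only. The part of these cell types in the differences in Cpa3, Irf8 and Ms4a6c was not tested.

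Cpa3 and Irf8 transcripts lay mostly in different cells, with 63 cells that held Cpa3 alone, 31 that held Irf8 alone, 15 that held both and 28 with neither. In the 61 cells with 2 or more Cpa3 UMIs, Gata2 was at 149 and 127 CPM, Gata1 at 76.5 and 69.5 CPM and Irf8 at 31.4 and 7.13 CPM. The 59 cells with none had Gata2 at 19.3 and 22.8 CPM, Gata1 at 13.5 and 10.5 CPM, Irf8 at 123 and 193 CPM and Lyz2 at 1765 and 1249 CPM. In the former group Lyz2 was at 371 and 394 CPM. In the 46 cells with an Irf8 UMI, F13a1 was at 188 and 279 CPM, Csf1r, the receptor gene for macrophage colony-stimulating factor, at 69.6 and 78.0 CPM, Hdc at 114 and 61.4 CPM and Gata1 at 4.22 and 11.8 CPM. The 91 cells without it had F13a1 at 59.4 and 56.7 CPM, Csf1r at 13.8 and 15.1 CPM, Hdc at 450.3 and 472 CPM and Gata1 at 63.5 and 52.9 CPM. Each of these values was on the same side in both libraries. The median depth was 20487.0 UMIs in the cells with Irf8 and 17720.0 UMIs in those without, and 20054.0 and 18297.0 UMIs in the cells with 0 and with 2 or more Cpa3 UMIs. All 137 cells carried 1 name in the deposited table, and these divisions are ranges within it.

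UMIs of the eosinophil granule genes Prg2 and Epx were concentrated in 1 cell, while Prg3 was found in 22 cells. Prg2, the major basic protein gene, was at 50.1 and 194 CPM in the early granule G cells, 0.290 and 0 CPM in HSPCs and 475 and 1189 CPM in the other G cells. Of its 296 UMIs in the early granule G cells, 217 (73.3%) were in 1 cell of library 2, which also held 65 of the 190 Prg3 UMIs and 8 of the 9 UMIs of Epx, the eosinophil peroxidase gene. The sum of the 5 eosinophil genes was 197 and 330.3 CPM in the early granule G cells and 642 and 1453 CPM in the other G cells. Siglecf, a lectin gene of eosinophils, was at 62.6 and 48.5 CPM against 103 and 82.2 CPM in the other G cells and 6.68 and 10.3 CPM in HSPCs.

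Erythroid genes summed to 10836 and 26940.4 CPM in the early granule G cells and to 34764 and 91764 CPM in the other G cells, with Hbb-bs giving the most UMIs, and 9 of 11 were called lower. Few cells carried this difference, since the median share of adult globin UMIs per cell was 0.701 and 0.843% in the early granule G cells and 0.836 and 0.924% in the other G cells. Cells with 5% or more globin UMIs numbered 2 and 7 among the early granule G cells and 6 and 12 among the other G cells, and without them none of 7 erythroid genes was called. Megakaryocyte genes summed to 46.7 and 50.1 CPM in the early granule G cells (2 of 6 at 0, the most UMIs from Itga2b). Hepatoblast genes summed to 30.0 and 14.8 CPM (none of 5 at 0, Afp), endothelial genes to 58.4 and 40.3 CPM (3 of 4 at 0, Pecam1) and lymphoid genes to 4.17 and 6.57 CPM (4 of 8 at 0, Vpreb1).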

How the data were processed

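The authors deposited raw UMI counts per gene and barcode for 2 technical libraries of 1 liver, and a table of cell types and phases. Per the methods and the submitters' processing notes, Cell Ranger 2.1.1, the mm10 genome and Seurat 3.2.0 were used, though the first library's matrix header gives 3.0.0. Cells under 200 genes had been removed. Doublets were sorted out before encapsulation, and none were removed here. No G cell shared its barcode between libraries (31 kept barcodes did).

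UMIs were summed per library and group and divided by all UMIs outside the 9 genes (CPM). Intervals (95%) were exact Poisson, exact conditional binomial for ratios and Clopper-Pearson for shares, and cover counting error only. A gene was called at 2-fold in both libraries with 50 CPM in the higher group, pooled, with groups under 3 counts set to 3. This floor also limits counts of 0. Thinned shares are means over all draws of 3600 UMIs, which left out 5 early granule G cells, 16 other G cells and 2 HSPCs. Named genes were list members and the 12 largest folds in each direction, by the smaller fold of both libraries. The members and lists were chosen with earlier results of these data known. Itgam, carried by 2 identifiers, and Cebpd were not analysed here. The results for some further genes of the lists are not reported here. Positions are from GENCODE vM21 (GRCm38). The steps were tested on simulated data. Python 3.11.15, numpy 2.4.6, pandas 2.3.3 and scipy 1.17.1 were used.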

Additional observations from a re-analysis of the deposited data

Results flagged for a closer look

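Outside the called cells, 95 barcodes of library 2 held 10 or more UMIs of Mpo, Elane, Prtn3 and Ctsg and fewer UMIs of the late granule genes, and library 1 had 0 such barcodes. They drew attention because they lie outside the cells compared in the report. Their median was 1936.0 UMIs and their highest total 4308 UMIs, with at most 73 early granule UMIs in 1 barcode. The lowest total of an early granule G cell was 1768 UMIs in library 1 and 4549 UMIs in library 2. Uncalled barcodes with 10 or more late granule UMIs numbered 64 in library 1 and 341 in library 2. Whether any of these barcodes held cells was not tested.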

How the results depend on the processing

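Groups were compared within each library, and no paired test was run. Of the single genes followed, 102 were called against other G cells and 66 against HSPCs, and none changed sign under the 15 alternatives. Of all called genes, none was called the other way under an alternative. The number of early granule G cells was 68 to 69 in single libraries. With each library left out in turn, the genes higher than in other G cells ranged from 692 to 834. They numbered 1070 at 1.5-fold, 226 at 3-fold, 906 at 20 CPM, 158 at 200 CPM and 310 centred on the median ratio, an alternative chosen after seeing the data. Genes lower than in other G cells numbered 592 at 1.5-fold, 232 at 3-fold, 596 at 20 CPM and 136 at 200 CPM. Genes higher than in HSPCs numbered 261 at 1.5-fold, 72 at 3-fold and 45 at 200 CPM. Genes lower than in HSPCs numbered 150 at 1.5-fold, 44 at 3-fold, 171 at 20 CPM, 15 at 200 CPM and 122 without globin, mitochondrial and ribosomal protein genes in the total. For these threshold changes, the alternative's own limit sets the number. With 1 library left out, the 2-fold difference was required in the remaining library only. For the other totals the cause was not tested. Single gene ratios left their 95% interval in 991 of 3690 values against other G cells and in 389 of 3420 against HSPCs. Leaving out cells with 10 or more late UMIs, or with 5% or more globin UMIs, was also added after seeing the data. Depth limits most the other G cells, which held 564111 and 571914 UMIs outside the 9 genes.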
